A study of Mus musculus with 4 samples.

Results

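The replication-dependent histone genes are the intron-poor genes that make the bulk of histone protein when DNA is copied, and their chromatin accessibility was examined here in mouse embryonic fibroblasts with and without HAT1. Members were the accessible sites lying within 1 kb of an annotated transcription start site (TSS) of any protein-coding gene whose symbol begins with Hist1h, Hist2h, Hist3h or Hist4h. The annotation held 67 such genes with 75 TSSs, and 38 of the 82325 sites in the whole table met the rule. By cluster, 33 sites belonged to Hist1 on chromosome 13, 2 to Hist2 on chromosome 3, 2 to Hist3 on chromosome 11 and 1 to Hist4 on chromosome 6. The rule used gene position only and no measured value. The assay was ATAC-Seq. Its transposase, Tn5, inserts adapters where chromatin is open, and each site has 1 normalised read count per library. The cells were immortalized embryonic fibroblasts (imMEFs) of C57bl6 background. All of them had been immortalized with SV40 large T antigen, controls included. There were 2 libraries from HAT1+/+ cells (WT) and 2 from cells carrying HAT1 KO alleles (HAT1-/-, KO). Each library came from its own line, so p-values below measure the spread between lines of a genotype, and line and genotype cannot be told apart where 1 line stands alone.

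Nucleosomes are built from a tetramer of histones H3 and H4 and dimers of H2A with H2B, and the linker histone H1 binds where DNA enters and leaves. Replication-dependent genes supply these proteins in S phase, lie in tandem and divergent arrays, are switched on by the cyclin E/CDK2 substrate NPAT and give transcripts that end in a stem-loop rather than a poly(A) tail. HAT1 acetylates newly made H4 before it is deposited behind the replication fork, so these genes encode its substrate and the partners of that substrate.

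The 4 libraries had medians of 51 to 53 and totals of 8008069 to 8516263 normalised counts over all sites. By the spacing of these values, about 9430000 reads of WT replicate 1 and 11400000 of WT replicate 2 fell in sites, against 7830000 of KO replicate 1 and 5650000 of KO replicate 2, so KO replicate 2 was the shallowest library. All 12 fibroblast marker genes had a promoter site, with summed values of 3919 to 4427 in WT and 4322 to 4574 in KO. Of 6 marker genes each, 4 had a site for epithelial, endothelial and neural cells, 2 for muscle, and 1 for blood and for pluripotent cells, and the summed values of these lists were between 9 and 576 in any library. The Hat1 promoter site held 387 ± 4.24 (SD, n = 2) in WT and 403 ± 49.5 in KO. Promoter accessibility therefore does not check the genotype labels. Among marker sites an unadjusted p under 0.05 was reached by Vim, a fibroblast gene, with 759 and 810 in WT and 977 and 919 in KO, and by 2 sites of the neural gene Syt1, which were lower in KO. The first Syt1 site held 150 and 110 in WT and 24 and 80 in KO. The other held 72 and 41 in WT and 15 and 26 in KO.

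The start regions of these genes carry short sequences that differ by histone type. Searched on both strands of the 250 bases upstream of the RefSeq start, the CCAAT box was found at 51 of the 62 histone genes that have an entry in RefSeq's promoter set (GRCm38), against 33.8% of the 32851 windows of all genes. It was present at 6 of 6 H1, 18 of 18 H2A, 16 of 16 H2B and 8 of 10 H3 genes, but at 3 of 12 H4 genes. The octamer ATTTGCAT, which Oct-1 binds, occurred at 7 of 18 H2A and 6 of 16 H2B genes and at none of the H1, H3 and H4 genes, against 1.60% of all windows. Neighbouring H2A and H2B genes share their upstream bases, so these counts overlap. GGTCCG, the core of the H4 element to which HINFP binds, occurred at 9 of 12 H4 genes and 6.72% of all windows. AAACACA, the H1 box, occurred at 5 of 6 H1 genes and 6.25% of all windows, and TATAAA at 29 of 62 histone genes and 12.4% of all windows. These matches describe letters and were not tested as binding sites.

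The stretches below show, for 1 named gene of each type, the bases that lay under an accessible site just upstream of the start. They are given 5′ to 3′ from the GRCm38 genome, and capitals mark the CCAAT, TATA, octamer, H4 and H1 box letters named above or their reverse complements. The first is the whole 175-base interval between the divergent starts of Hist1h2ae and Hist1h2bg, at chr13:23571221-23571395 on the plus strand. Hist1h3g is shown for 180 bases at chr13:23535238-23535417 on the plus strand. Hist1h4j is shown for 100 bases at chr13:21734964-21735063 on the plus strand, counted from its GENCODE start. Hist1h1b is shown for 180 bases at chr13:21780626-21780805 on the minus strand, of which 90 lay inside a site.
Hist1h2ae-Hist1h2bg: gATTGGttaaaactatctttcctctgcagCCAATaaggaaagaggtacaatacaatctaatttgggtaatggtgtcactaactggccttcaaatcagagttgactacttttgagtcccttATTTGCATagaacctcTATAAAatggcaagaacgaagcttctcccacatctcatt
Hist1h3g: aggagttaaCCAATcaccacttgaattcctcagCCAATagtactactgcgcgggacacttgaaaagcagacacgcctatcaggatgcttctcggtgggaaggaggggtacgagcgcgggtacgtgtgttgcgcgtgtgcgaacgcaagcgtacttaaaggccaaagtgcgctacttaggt
Hist1h4j: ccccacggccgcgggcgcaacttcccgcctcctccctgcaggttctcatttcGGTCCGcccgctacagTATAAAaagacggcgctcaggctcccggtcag
Hist1h1b: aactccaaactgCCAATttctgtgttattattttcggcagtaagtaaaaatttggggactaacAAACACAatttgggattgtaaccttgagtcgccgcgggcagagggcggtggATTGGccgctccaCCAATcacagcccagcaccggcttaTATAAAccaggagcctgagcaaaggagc

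Accessible sites were present at most, but not all, of the genes. A site lay within 1 kb of a TSS at 46 of 67 histone genes (68.7%), beside 13772 of 21857 other protein-coding genes (63.0%). By type, 10 of 12 H3 genes, 13 of 18 H2B genes, 12 of 18 H2A genes, 8 of 13 H4 genes and 3 of 6 H1 genes had one. By cluster the counts were 39 of 54 in Hist1, 4 of 10 in Hist2, 2 of 2 in Hist3 and 1 of 1 in Hist4. Of the 38 sites, 31 covered a TSS and 7 lay beside one, at 288 to 738 bp. Because the genes are packed closely, 16 sites were within 1 kb of more than 1 histone gene. Of 12 divergent H2A and H2B gene pairs with starts 176 to 306 bp apart, 8 were covered by 1 site over both starts and 4 had no site.

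The 21 genes without a site fell into a few groups. Hist1h1t, Hist1h2aa and Hist1h2ba are testis-specific genes, and the windows within 250 bp of their starts were 100% unique, meaning that every 50-base stretch occurred once in the genome. The 5 genes Hist1h1c (a major somatic H1), Hist2h2bb, Hist2h4, Hist1h4h and Hist1h2ak had windows that were at least 78.0% unique and still no site. Hist1h4c, Hist2h3b and Hist1h2bn had windows that were 76.3%, 69.0% and 64.7% unique. Hist1h2ao, Hist1h2ap, Hist1h2bq and Hist1h2br had windows with no unique 50-base stretch at all. Windows of Hist1h4m, Hist1h4n, Hist2h2aa1, Hist2h2aa2 and Hist2h3c1 were 9.09% to 20.2% unique. Hist1h1d, another somatic H1 gene, is the remaining one and is described with the neighbouring sites.

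**Figure D1:**
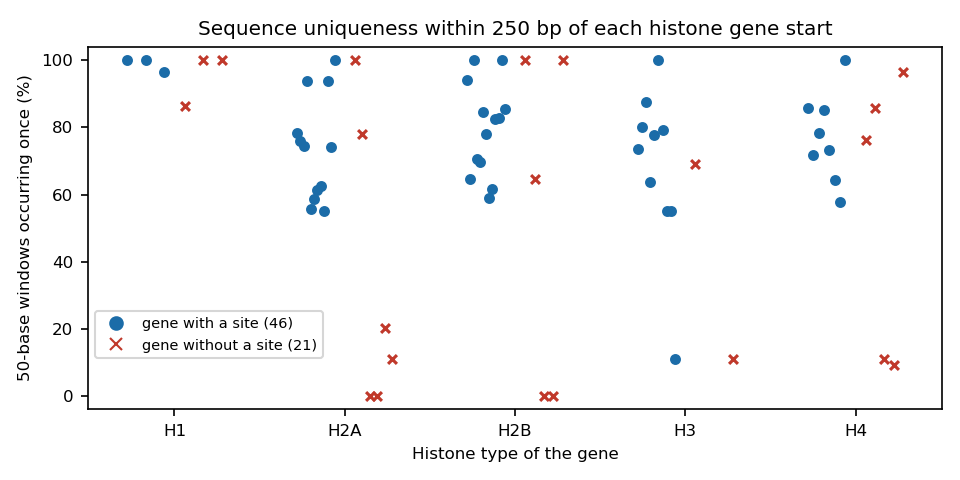
Share of 50-base windows within 250 bp of each histone gene start that occur once in the genome (vertical axis, %), by histone type (horizontal axis); each point is a gene, circles with a site within 1 kb and crosses without one. The 9 crosses at or below 20.2% are the genes of near-identical copies, and the 1 circle at 11.1% is Hist2h3c2, whose site lies 513 bp from its start.

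Lack of a site went with duplicated sequence. Of the 10 genes whose window was under 25% unique, 1 (10.0%) had a site, against 45 of the other 57 (78.9%). Hist1h4m and Hist1h4n, both H4 genes, are an example, since the 250 bases upstream of their starts were identical at 250 of 250 positions. The 60 bases next to the start, with GGTCCG in capitals, are given for Hist1h4m (chr13:21811686-21811745, plus strand) and Hist1h4n (chr13:21832197-21832256, minus strand).
Hist1h4m: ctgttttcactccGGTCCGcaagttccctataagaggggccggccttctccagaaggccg
Hist1h4n: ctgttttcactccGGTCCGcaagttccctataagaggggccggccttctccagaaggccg
How reads with several matches were handled is not given in the sources used here, so absence of a site at 9 of these 10 genes cannot be read as closed chromatin. The member sites themselves were between 51.7% and 100% unique with a median of 80.9%, and 8 of 38 were at least 90% unique.

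The histone gene sites ranked high among promoters. Their mean value over the 4 libraries had a median of 287 normalised counts, against 158 at the 17973 other protein-coding promoter sites and 52 at all sites. Per kb of site, the median level was 474 for members and 221 for other promoter sites. On that scale 37 of 38 members lay above the median of other promoters and 22 lay at or above their 90th percentile. The highest level per kb was at the shared Hist1h2ac and Hist1h2bc site, with 768 per kb, followed by Hist1h2ah and Hist1h2bk with 724 and Hist1h2ae and Hist1h2bg with 677. These 3 are divergent H2A and H2B promoters. Their sites were 62.6%, 62.4% and 72.8% unique, so their levels depend on how reads with several matches were handled, which is not given. The lowest was Hist3h2ba with 113 per kb, and the next lowest, Hist2h3c2, had 254 per kb. By type class, the median level per kb was 542 for the 9 shared H2A-H2B sites, 521 for the 2 H2A sites, 490 for the 7 sites of other mixed types, 473 for the 8 H3 sites, 419 for the 7 H4 sites, 384 for the 3 H1 sites and 336 for the 2 H2B sites. The ranges of neighbouring classes in that order overlapped. The 2 H2B sites lay far apart, with 559 per kb at Hist1h2bm and 113 at Hist3h2ba.

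Loss of HAT1 was then examined at each site by limma fitted over all 82325 sites on log2(value + 1). No member was called at the rule of an unadjusted p under 0.01 and a log2 fold change of 1 or more in either direction, which called 0.373% of all sites, 0.0705% higher and 0.302% lower in KO. No member reached an unadjusted p under 0.05 either, against 3.13% of all sites (1.54% higher and 1.59% lower in KO). The smallest member p was 0.059, and the adjusted p was 1 at every member. With an adjusted p under 0.05 the share of all sites called was 0.0%. The median log2 fold change of members was 0.20, beside 0.01 at all sites and 0.01 at other protein-coding promoter sites. It was above 0 at 34 of 38 members (89.5%), beside 50.7% of all sites. Without KO replicate 2 that count was 26 of 38 (68.4%, beside 51.4% of all sites), a check added after the values were seen. The share without that library was 85.4% at 1369 other promoter sites whose value per kb was at or above the member median. The 38 members include those below that level, so these shares are not at like signal.

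The direction came from 1 KO line far more than the other. Summed over the 38 sites, WT replicates 1 and 2 held 11342 and 11415, KO replicate 1 held 11824 and KO replicate 2 held 15025 normalised counts. Both KO sums lay above both WT sums, but KO replicate 1 was 1.04-fold and KO replicate 2 was 1.32-fold of the WT mean. KO replicate 2 was the highest of the 4 libraries at 32 of 38 members (84.2%), beside 28.0% of all sites, 31.3% of other promoter sites and 70.8% of the 1369 other promoter sites whose value per kb was at or above the member median. Its median log2 ratio to the mean of both WT libraries was 0.40, whereas that of KO replicate 1 was 0.07. Both KO values exceeded both WT values at 19 of 38 members, a pattern found at 14.6% of all sites and 18.6% of other promoter sites. With libraries scaled to equal totals the count was 10 of 38 (26.3%, beside 10.9% of all sites), and after quantile normalization it was 2 of 38 (5.26%, beside 13.1% of all sites). Members with a log2 fold change above 0 numbered 32 of 38 (84.2%) under either scaling. With equal totals 42.9% of all sites and 39.9% of other promoter sites were above 0. After quantile normalization these shares were 49.9% and 37.4%. Other promoter sites were not matched for signal in these checks, which were added after the values were seen. On the deposited scale both KO values lay below both WT values at 1 member, the Hist1h1e site that also covers the annotated Hist1h2be starts, beside 14.3% of all sites.

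**Figure D2:**
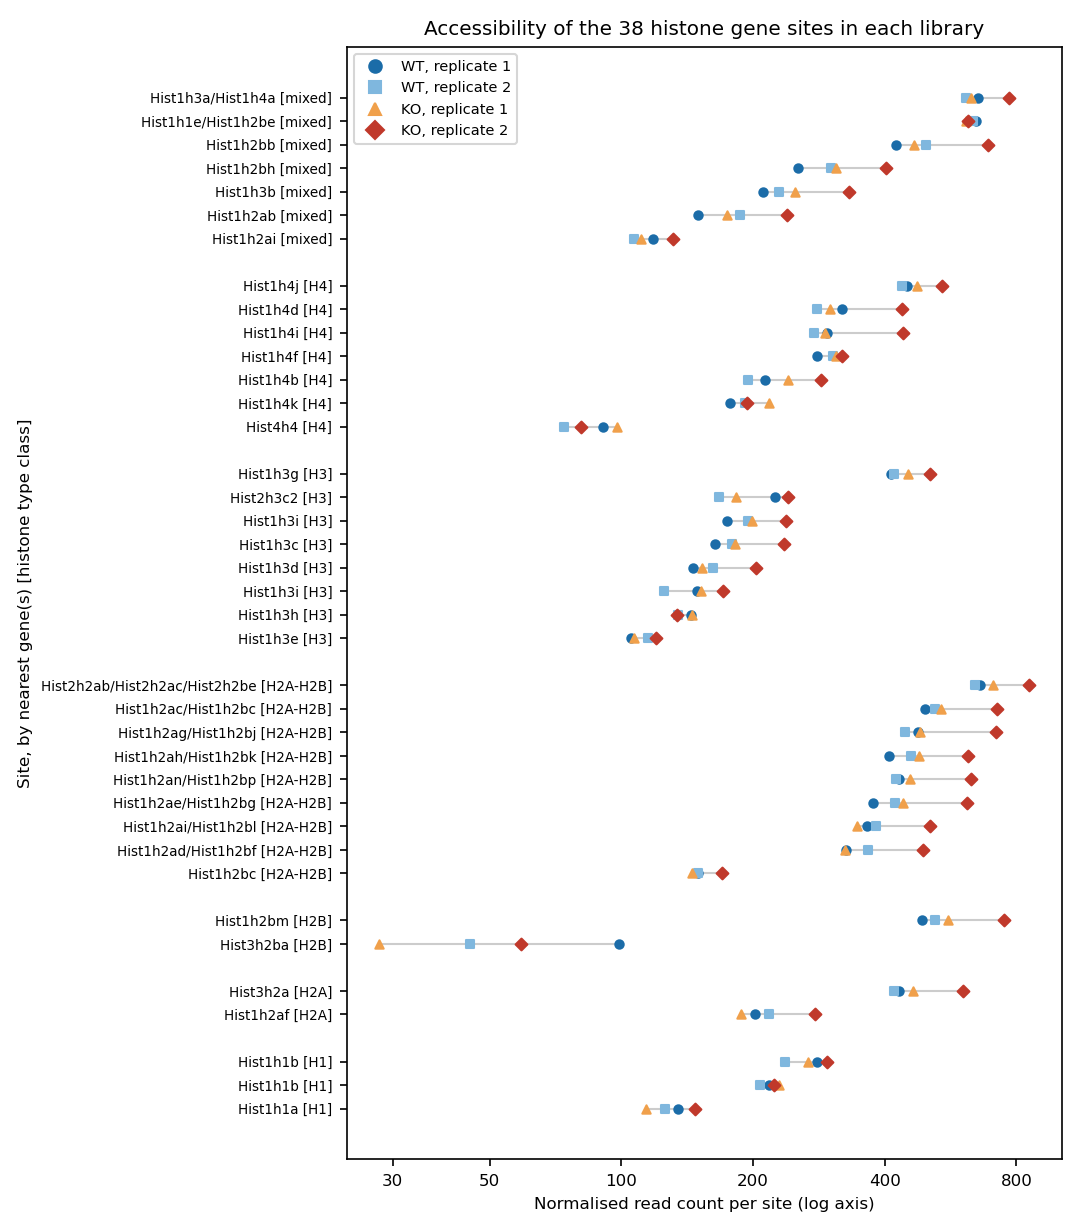
Normalised read count (horizontal, log axis) of each of the 38 sites (rows, named by nearest genes and grouped by histone type class) in the 4 libraries: WT replicate 1 circle, WT replicate 2 square, KO replicate 1 triangle, KO replicate 2 diamond. KO replicate 2 is farthest to the right at 32 of 38 sites, and the other 3 libraries lie close together at most of them.

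A shift of this kind rose with signal at other promoters as well. In bins of like signal from 200 per kb up, the medians of KO replicate 2 were higher in members. Each of these bins held only 2 to 11 members. Signal here is the mean over the 4 libraries, so it includes KO replicate 2 itself. Among other protein-coding promoter sites, 1369 had a value per kb at or above the member median. In these the median log2 fold change was 0.19, it was above 0 at 95.3%, and both KO values exceeded both WT values at 60.6%. The corresponding values over all members, including those below that level, were 0.20, 89.5% and 19 of 38. In bins of like signal, the median log2 fold change was 0.09 in members and 0.08 in other promoters between 300 and 400 per kb, 0.28 and 0.14 between 400 and 500, 0.28 and 0.18 between 500 and 600, and 0.20 and 0.22 between 600 and 700. The median log2 ratio of KO replicate 1 was 0.12 in the strong promoters and 0.07 in members. KO replicate 2 had 0.26 in the strong promoters and 0.40 in members. Between 400 and 500 per kb, where 11 members lay, the median for KO replicate 2 was 0.49 in members and 0.16 at 1411 other promoters. Between 500 and 600 per kb it was 0.49 at 8 members and 0.24 at 675 other promoters. The same medians were 0.50 and 0.29 between 600 and 700 per kb, and 0.51 and 0.33 above that. From 200 to 300 per kb they were 0.21 and 0.01, and from 300 to 400 they were 0.17 and 0.11. The 1 member between 100 and 200 per kb had -0.18, beside -0.15 at other promoters. At the other end, promoters under 100 per kb had a median of -0.34 for the second KO library and -0.31 for the first, and no member had so low a value. Because signal and library moved together in this way, the part of genotype in the shift was not tested.

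**Figure D3:**
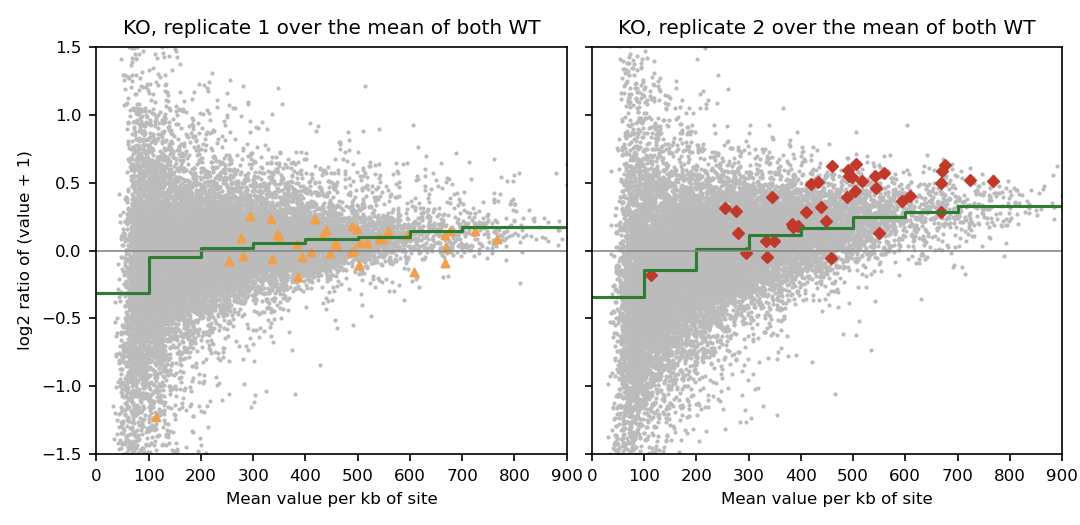
Log2 ratio of (value + 1) to the mean of both WT libraries (vertical) against mean value per kb (horizontal) for KO replicate 1 (left) and KO replicate 2 (right); grey points are other protein-coding promoter sites, coloured points the 38 members and the green line the median of the other promoters in each bin. In both panels the green line climbs from below 0 to above 0 with signal, and most members lie above it on the right only; 401 other promoters on the left and 248 on the right fall outside the axes, which end at ±1.5 and 900 per kb.

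By cluster, Hist1 carried most of the signal. Its 33 sites summed to 9837 and 10065 in WT and to 10342 and 13182 in KO replicates 1 and 2. The WT sums differed little, KO replicate 1 was just above them and KO replicate 2 was well above, giving a log2 ratio of KO to WT means of 0.24 with means of 9951 ± 161 (SD, n = 2) and 11762 ± 2008. The KO spread was thus larger than the difference of the means. With 2 libraries against 2, an exact permutation test cannot go below a p of 0.333, so no sum was tested. In Hist2 the sums were 883 and 812 in WT and 892 and 1098 in KO.

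The main Hist2 site, at chr3:96219551-96221627, spans the starts of Hist2h2ab, Hist2h2ac and Hist2h2be, genes for H2A and H2B. It held 659 and 645 in WT and 709 and 857 in KO replicates 1 and 2. Both KO values lay above both WT values, with KO replicate 2 again the highest. Its log2 fold change was 0.26 (SE 0.11; limma unadjusted p = 0.0595). The Hist2h3c2 site, near a gene for H3, held 224 and 167 in WT and 183 and 241 in KO. Here the genotypes overlapped, and the log2 fold change of 0.12 (SE 0.25) was smaller than its error. The site was 86.2% unique, whereas the start window of Hist2h3c2, 513 bp away, was 11.1% unique.

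The 2 Hist3 sites had log2 fold changes of opposite sign, neither past the test. The Hist3h2a site, at a gene for H2A on chromosome 11, held 432 and 419 in WT and 464 and 605 in KO. Both KO values were the higher ones and the log2 fold change was 0.32 (SE 0.15; limma unadjusted p = 0.0832). The nearby Hist3h2ba site, at a gene for H2B, was the weakest of all members. It held 99 and 45 in WT and 28 and 59 in KO, a wide scatter within each genotype in which the groups overlapped. Its log2 fold change of -0.70 had an SE of 0.54 (95% interval -2.01 to 0.60), so its size is poorly fixed at this signal. Hist4h4, the only gene of its cluster, encodes H4 and lies 525 bp from its site, which held 91 and 74 in WT and 98 and 81 in KO. The groups overlapped and the log2 fold change was 0.12 (SE 0.30).

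By histone type, the log2 ratio of summed KO to WT means was 0.08 for the linker histone H1, and 0.22 when sites within 3 kb were used. Differences between types were not tested. The 3 H1 sites summed to 633 and 570 in WT and to 610 and 665 in KO, and the KO range overlapped that of WT. The strongest of them, near Hist1h1b (the H1.5 gene), held 280 and 237 in WT and 267 and 295 in KO. Its log2 fold change was 0.12 (95% interval -0.30 to 0.55), and KO replicate 1 lay between the WT libraries. These H1 sites are 100% unique. The large site over Hist1h1e, another somatic H1 gene, also covered annotated starts of Hist1h2be, and held 646 and 636 in WT and 614 and 620 in KO. It was the member with both KO values lowest, by a log2 fold change of -0.05 (95% interval -0.27 to 0.16).

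The shift in KO replicate 2 was seen at every divergent H2A and H2B promoter with a site. All 9 shared H2A-H2B sites were highest in that library, and their sums were 3689 and 3818 in WT, 3921 in KO replicate 1 and 5333 in KO replicate 2, the last 1.42-fold of the WT mean. KO replicate 1 was 1.04-fold. At the Hist1h2ae and Hist1h2bg site, whose shared promoter is printed above, the values were 376 and 423 in WT and 441 and 617 in KO. Both KO values were above both WT values, the second by a wide margin, and the log2 fold change was 0.39 (SE 0.18; limma unadjusted p = 0.0768). The strongest shared site of Hist1, over Hist1h2ac and Hist1h2bc, held 495 and 520 in WT and 537 and 723 in KO, with the same order of libraries and a log2 fold change of 0.30 (SE 0.16).

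Sites of a lone H2A or H2B gene behaved unevenly. Hist1h2bm, an H2B gene, had the smallest p of any member. Its values were 486 and 521 in WT and 557 and 749 in KO, both KO values above both WT values, with a log2 fold change of 0.36 (SE 0.16; limma unadjusted p = 0.059; 95% interval -0.02 to 0.74). This site was 67.3% unique. Hist1h2af, an H2A gene, held 202 and 217 in WT and 188 and 277 in KO. Its KO libraries were the lowest and the highest of the 4, so the genotypes overlapped, and the log2 fold change was 0.12 (SE 0.24).

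The H3 and H4 sites were intermediate. The 8 H3 sites summed to 1519 and 1498 in WT and to 1573 and 1851 in KO, and the 7 H4 sites to 1825 and 1757 in WT and to 1930 and 2301 in KO. In both types the KO sums exceeded the WT sums, by 1.04-fold and 1.23-fold of the WT mean for H3 and by 1.08-fold and 1.28-fold for H4. The strongest H3 site, at Hist1h3g, held 413 and 420 in WT and 452 and 508 in KO. Its groups did not overlap, and its log2 fold change was 0.20 (SE 0.12). Hist1h3c, also an H3 gene, held 164 and 179 in WT and 182 and 236 in KO, with KO replicate 1 barely above WT and a log2 fold change of 0.27 (SE 0.22). Among the H4 genes, which encode the substrate of HAT1, Hist1h4j held 449 and 437 in WT and 473 and 541 in KO. The genotypes did not overlap there, and the log2 fold change was 0.19 (SE 0.12). Hist1h4b held 213 and 195 in WT and 240 and 286 in KO, again without overlap, and had a log2 fold change of 0.36 (SE 0.19; limma unadjusted p = 0.104). All 7 H4 sites had KO replicate 1 values above the WT mean, by a log2 ratio of 0.01 to 0.25. So did 51.4% of all sites and 85.4% of the 1369 strong promoters. The median ratio was 0.09 at H4 sites and 0.12 at those promoters. H4 sites had a median of 419 per kb, below the 474 per kb from which those promoters were taken.

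Of the 7 sites within 1 kb of genes of other mixed types, 2 fell under the naming rule. The Hist1h3b site, which is also near Hist1h2ab, held 211 and 229 in WT and 249 and 332 in KO, with no overlap and a log2 fold change of 0.39 (SE 0.20). The wide site over Hist1h3a and Hist1h4a held 653 and 612 in WT and 629 and 771 in KO. There KO replicate 1 lay between the WT libraries, and the log2 fold change was 0.14 (SE 0.12).

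**Figure D4:**
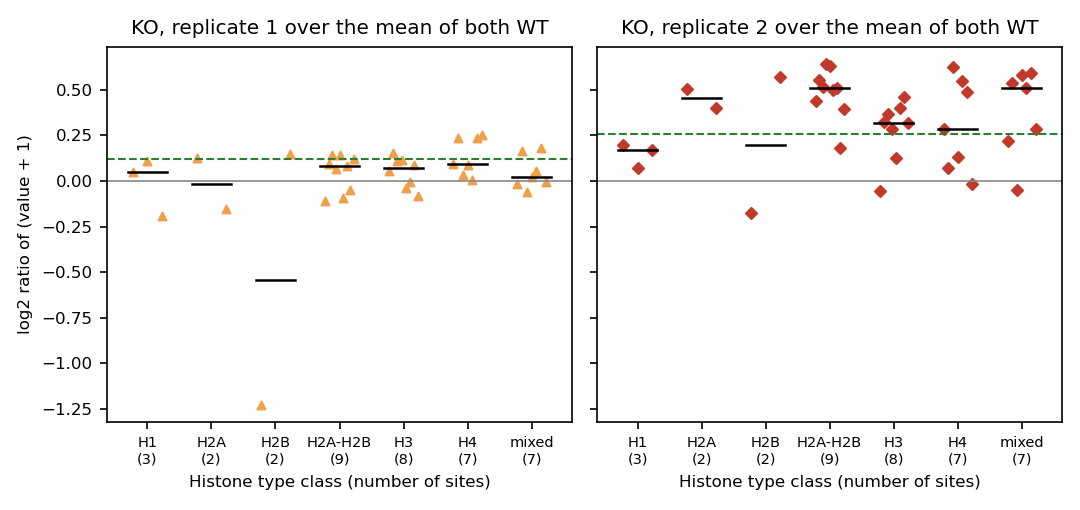
Log2 ratio of (value + 1) to the mean of both WT libraries (vertical) for KO replicate 1 (left) and KO replicate 2 (right) at each member site, by histone type class (horizontal, number of sites in brackets); bars are class medians, and the dashed line is the median of 1369 other promoter sites with a value per kb at or above the member median. On the left every class median lies below the dashed line. On the right the H2A-H2B, H2A, mixed, H3 and H4 medians (0.51, 0.45, 0.51, 0.32 and 0.29) lie above it and the H1 and H2B medians (0.17 and 0.20) below. The H2B median is that of 2 sites far apart, Hist1h2bm at 0.57 and Hist3h2ba at -0.18.

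Sequence uniqueness moved with the shift in KO replicate 2. In the 8 members that were at least 90% unique the median log2 ratio of that library was 0.15, and in the other 30 it was 0.45. For KO replicate 1 the medians were 0.08 and 0.07. The unique members include the 3 H1 sites and Hist4h4, and none of the shared H2A-H2B sites. They also include Hist3h2a, with a ratio of 0.51 in KO replicate 2, and 1 Hist1h3i site, with 0.32. Unique members had a lower median signal, 366 per kb against 501 per kb, so type, signal and uniqueness cannot be told apart here.

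The Hist1 interval runs for 2.22 Mb on chromosome 13 and also holds the main cluster of mouse tRNA genes, short RNA polymerase III genes. It contained 124 sites: the 33 members, 67 sites near 77 annotated tRNA genes and 24 others. Members lie in groups at both ends of the interval, divided by 1.49 Mb without a histone gene start. In KO replicate 2 the median log2 ratio was 0.40 at Hist1 members, 0.24 at tRNA sites and 0.24 at the other sites, against 0.04 on the rest of chromosome 13. In KO replicate 1 these medians were 0.06, 0.08, 0.07 and -0.01. At 162 tRNA sites elsewhere in the genome the KO replicate 2 median was 0.12. These groups were not matched for signal. Median values per kb were 492 at Hist1 members, 244 at tRNA sites of the interval and 177 at its other sites. They were 109 on the rest of chromosome 13 and 330 at tRNA sites elsewhere. Of 13 listed non-histone genes that start inside the interval, such as Hfe (iron uptake) and Btn1a1 (a butyrophilin), 8 had a promoter site, 11 sites in all. Of these, 8 had a log2 fold change above 0 and 3 below, with a median of 0.14 and none past an unadjusted p under 0.05. The same list held 3 genes that start beyond the end of the interval, 2 of which had a promoter site. Their 5 sites had 1 log2 fold change above 0 and 4 below, none past that threshold. The list's 2 most changed sites were among them, at Carmil1, an actin regulator, with a log2 fold change of -0.93, and at Cmah, a sialic acid hydroxylase, with -0.55, both at sites with values of at most 57.

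**Figure D5:**
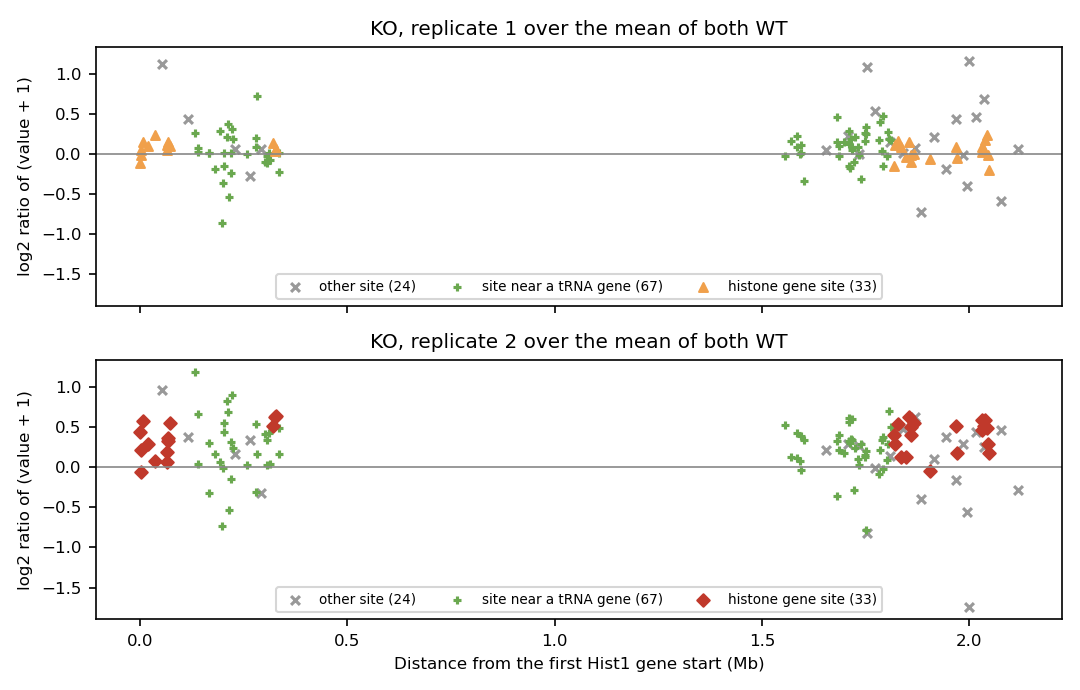
Log2 ratio of (value + 1) to the mean of both WT libraries (vertical) along the Hist1 interval (horizontal, Mb from the first Hist1 gene start) for KO replicate 1 (top) and KO replicate 2 (bottom); filled symbols are the 33 histone gene sites, plus signs the 67 sites near tRNA genes and crosses the 24 other sites. Histone gene sites sit at both ends of the interval, around 0 in the top panel and mostly above 0 in the bottom one.

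The genes that regulate histone gene expression had open promoters with small differences. All 26 listed genes had a promoter site, 33 sites in all, of which none was called, 24 had a log2 fold change above 0 and 9 below, with a median of 0.16. Among other promoter sites 52.3% were above 0, with a median of 0.01, and among the strong promoters 95.3%, with 0.19. The listed site passing an unadjusted p under 0.05 was that of Nfya, a subunit of the CCAAT-binding factor NF-Y, with 907 and 900 in WT and 979 and 1176 in KO. Both KO values were higher and the log2 fold change was 0.25 (SE 0.10; limma unadjusted p = 0.043), beside 1.54% of all sites past that threshold in the higher direction. Of the 1369 strong promoters, 237 passed it in either direction. Npat, the coactivator of these genes, and Slbp, which binds the stem-loop of histone mRNA, were picked for their roles after their values were seen. Npat held 502 and 507 in WT and 533 and 683 in KO. Slbp held 744 and 690 in WT and 739 and 872 in KO. KO replicate 2 was the highest library at both, and the log2 fold changes of 0.26 (SE 0.14) and 0.16 (SE 0.11) did not pass the test.

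Replication-independent histones, most of which are made throughout the cell cycle, also had open promoters. All 11 genes had a site, 15 sites in all, with 11 log2 fold changes above 0 and 4 below, a median of 0.11 and none called. An unadjusted p under 0.05 was reached at 3, beside 1.54% of all sites in the higher direction, 237 of the 1369 strong promoters in either direction and none of the 38 members. They were those of H3f3b (histone H3.3), H2afz and H2afv (both H2A.Z). H3f3b held 691 and 713 in WT and 811 and 950 in KO, H2afz held 395 and 417 against 482 and 532, and H2afv held 601 and 611 against 680 and 812. KO values lay above WT values at all of them, with log2 fold changes of 0.32 (SE 0.10), 0.32 (SE 0.12) and 0.29 (SE 0.11) and limma unadjusted p-values of 0.0169, 0.0372 and 0.037. For comparison with the whole list, 95.3% of strong promoters had a log2 fold change above 0, with a median of 0.19. Among all other promoter sites these values were 52.3% and 0.01.

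The distance limit left out sites that another annotation or limit would include. The members farthest from a start were those of Hist1h3e and Hist1h3i, both H3 genes, at 738 and 725 bp. The Hist1h3e site held 105 and 115 in WT and 107 and 120 in KO, and the Hist1h3i site held 149 and 125 in WT and 152 and 171 in KO. The nearest site outside lay 1098 bp from the start of Hist1h2ab, an H2A gene, and held 206 and 207 in WT and 333 and 247 in KO. There, unlike at most members, KO replicate 1 was the highest library, and the log2 fold change was 0.47 (SE 0.21). The next lay 1459 bp from Hist1h2ac and held 122 and 89 in WT and 141 and 93 in KO, with overlapping genotypes.

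Annotation mattered at Hist1h1d. RefSeq places its start at chr13:23555032, inside a site that lies 1639 bp from the GENCODE start. This site held 585 and 563 in WT and 581 and 797 in KO, so KO replicate 1 lay between the WT libraries, and the log2 fold change was 0.25 (SE 0.16). A further site over the start codon of Hist1h2be, an H2B gene whose annotated starts lie at the Hist1h1e site, held 361 and 316 in WT and 357 and 523 in KO. Its log2 fold change was 0.35 (SE 0.21), and at both sites KO replicate 2 alone was outside the WT range.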

How the data were processed

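ATAC-Seq libraries of 4 imMEF lines, 2 WT and 2 KO, were analysed, grouped by the genotype in the labels. Per the labels and the study's methods, the authors' pipeline used BWA 0.7.12 for paired-end alignment to mm10, called peaks with MACS2 2.1.0 and compared genotypes with DESeq2. The deposited values are a score, namely the read count of each merged region divided by a factor per library and rounded to whole numbers by the authors. Read filtering, duplicate removal, multiply mapping reads and the Tn5 offset are not given in the sources used here. The deposited table also holds the authors' own log2 fold changes (raw and shrunken), p-values and adjusted p-values for the genotype comparison, which were not used. Approximate depths were estimated from the spacing of the whole-number values. They carry counting error that is larger in KO, which had fewer reads.

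The study's methods name a count test. Since the values are not raw counts, limma 3.58.1 with an intensity trend was fitted in R 4.3.3 to log2(value + 1) over all 82325 sites without a filter, with Benjamini-Hochberg adjustment, and fold changes on this scale understate changes of low sites. Calls needed an unadjusted p under 0.01 and a log2 fold change of 1 or more in either direction. In simulated data of this design, 154 of 200 sites planted with a log2 change of 2 in either direction were recovered, and calls were also made at 823 of the unchanged sites. The simulation gave every site the same variance, and these false calls outnumber the 307 calls in the data, so the share of false calls in the data is not known from it.

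TSSs came from GENCODE release 21 for the mouse on GRCm38 (mm10). All 67 genes were matched to RefSeq symbols, and 62 had a RefSeq promoter window. Sites within 1 kb of genes of 1 histone type were assigned to it, those of H2A and H2B to a shared class and all others to a mixed class. Uniqueness is the percentage of 50-base windows found once on either strand of the assembled chromosomes. Levels per kb divide the mean value by site length. Named sites are every site of Hist2, Hist3 and Hist4, the strongest and the most changed site of each class in Hist1, any member with an unadjusted p under 0.05, and in each gene list the promoter sites with an unadjusted p under 0.05 or otherwise the 2 most changed. Further names are said to be chosen later or mark a count or a distance limit. The members, lists and tests were chosen with earlier results of these data known. Alternatives were other scalings, pseudocounts, signal filters, distances, call rules and leaving out each library. Python 3.11.15, numpy 2.4.6 and pandas 2.3.3 were used.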

Additional observations from a re-analysis of the deposited data

How the results depend on the processing

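No member was called under any alternative tried: equal totals, quantile normalization, a pseudocount of 8, sites at or above the median signal, leaving out each library, TSS distances of 0.5 and 3 kb, added RefSeq starts (a choice made after the data were seen) and the call rules by adjusted p or by an unadjusted p under 0.05. Each alternative was changed alone, so these other call rules were applied only with every library kept. The count over all sites was 307 and became 115 with sites at or above the median signal, 0 at an adjusted p under 0.05 and 2579 at an unadjusted p under 0.05 without a fold filter, and it ranged from 36 to 612 without 1 library, the highest without KO replicate 2.

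The median log2 fold change of members, 0.20, ranged from 0.073 without KO replicate 2 to 0.40 without KO replicate 1. It was 0.13 with equal totals, 0.09 after quantile normalization and 0.10 in members at least 90% unique. Members with a log2 fold change above 0 numbered 26 to 35 without 1 library, beside 49.5% to 51.4% of all sites. They numbered 32 of 38 (84.2%) with equal totals, beside 42.9% of all sites. After quantile normalization they also numbered 32 of 38, beside 49.9% of all sites. The 26 of 38 (68.4%) was without KO replicate 2, beside 85.4% of the strong promoters. These shares are not at like signal, because the 38 members include those below the level that defines the strong promoters. Members with both KO values above both WT values numbered 10 with equal totals (26.3%, beside 10.9% of all sites), 2 after quantile normalization (5.26%, beside 13.1%) and 21 to 34 without 1 library (beside 29.5% to 34.7% of all sites), where 1 library of a genotype is then compared alone.

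The log2 ratio of KO to WT sums without 1 library ranged from 0.056 to 0.41 for Hist1, 0.038 to 0.47 for H2A, 0.024 to 0.49 for H2B, 0.063 to 0.51 for H2A-H2B, 0.060 to 0.30 for H3, 0.11 to 0.36 for H4 and 0.022 to 0.34 for mixed sites, in each case lowest without KO replicate 2. For H1 it ranged from 0.01 without WT replicate 2 to 0.16 without WT replicate 1. In members at least 90% unique it was 0.038 for Hist1 and -0.055 for mixed sites. Within 3 kb it was 0.22 for H1 and 0.045 for H3, since other sites then enter or leave each class. No value could be had for Hist2, H2B and H2A-H2B among unique members, or for Hist4 within 0.5 kb, where no site was left.

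Of the named sites, Hist1h3a/Hist1h4a turned to -0.060 after quantile normalization. Without 1 library the ranges of those that changed sign were -0.15 to 0.40 for Hist1h2af, -0.0072 to 0.29 for Hist1h3a/Hist1h4a, -0.093 to 0.33 for Hist2h3c2 and -0.030 to 0.26 for Hist4h4. The cause was not tested. No paired analysis was possible because replicates were numbered by accession only, and the labels state no tie between a WT and a KO line. The line names of WT replicate 1 and KO replicate 2 share a number whose meaning is not given, and the other lines share none. The shallow KO libraries and 2 lines per genotype limit what could be detected.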
